A study of Mus musculus with 3 samples.

Results

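The genes described here are the translation factors and aminoacyl-tRNA synthetases of the array. They were chosen by symbol: every probe whose only gene symbol starts with Eif or Eef, is Etf1, Gspt1 or Pabpc1, or is a tRNA synthetase. The rule found 112 of 16273 probes, which belong to 64 genes, and used no measured value. No probe was named Etf1, and the elongation factor Eef2 occurs only on probes with more than 1 symbol, so neither is among the 64. The arrays compare total RNA of mouse liver, labelled with Cyanine-5, with UMRR, the Universal Mouse Reference RNA, labelled with Cyanine-3. UMRR is sold as a mixture of RNAs from several mouse cell lines. Both RNAs were purchased and made into cRNA in a single round of amplification. The same pair was put on 3 arrays with the same dye orientation, so the dye effect is part of every ratio. The labels give no strain, age, sex, genotype or number of animals for either RNA, so a p-value speaks of the spread between these 3 hybridizations, possibly technical, and not between livers.

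Protein synthesis starts when initiation factors (eIFs) bring the initiator tRNA and the small ribosomal subunit to the capped end of an mRNA. Elongation factors (eEFs) then deliver aminoacyl-tRNAs and move the ribosome along, and release factors end the chain. The synthetases charge each tRNA with its amino acid, with 1 set of enzymes in the cytoplasm and another in mitochondria. Liver makes most plasma proteins, while the cell lines of a reference pool grow and divide.

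Each value is the deposited log ratio of a probe, read as log2 of liver over UMRR. The base is not stated, and natural logs would make every log2 value larger by a factor of 1.44. Exact zeros, 23.5% to 32.2% of the values per array, were read as no measured ratio. A list of hepatocyte secretory genes set the direction: its 4 measured genes had a median of 4.57. Markers of pancreatic acinar cells, another cell type with heavy protein synthesis, were also on the liver side. Of 24 in that list 14 were measured and 13 were higher, with array medians of 4.11 to 4.61, and Cel stood at 0.22. Of 5 measured erythroid genes 3 were higher, with array medians of 2.31 to 3.49, and of 4 measured muscle genes 3 were higher and 1 lower, with array medians of 0.48 to 0.97. Of 3 measured neuron genes 1 was higher and 2 lower. The 6 measured cell cycle genes were all lower in liver, with a median of -2.71. The part of RNA from these other cell types and of cell growth in the results below was not tested. Fewer cells of a type and less RNA per cell cannot be told apart in such RNA.

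Of the 64 genes, 49 had a probe with a ratio on all 3 arrays and were tested, 10 had one on some arrays, and 5 were at exact 0 throughout. In the limma fit over 5520 genes, with Benjamini-Hochberg adjustment over all of them and a threshold of 0.05, 26 of the 49 were lower in liver, 8 were higher and 15 did not pass. That is 53.1% lower and 16.3% higher, against 33.9% lower and 30.1% higher among all genes tested. The median log2 ratio of the 49 genes was -0.32, and that of all genes tested was -0.028. The array medians of the 49 genes were -0.53, -0.33 and -0.25 on arrays 1, 2 and 3. At least 2-fold on every array were 7 genes on the UMRR side and 4 on the liver side, or 14.3% and 8.16%, against 9.53% and 9.46% of all genes. When exact zeros counted as ratios of 1, all 64 genes entered, and 16 were lower and 7 higher. Without array 1, 25 were lower and 13 higher, and without moderation of the variance 14 were lower and 4 higher.

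**Figure D1:**
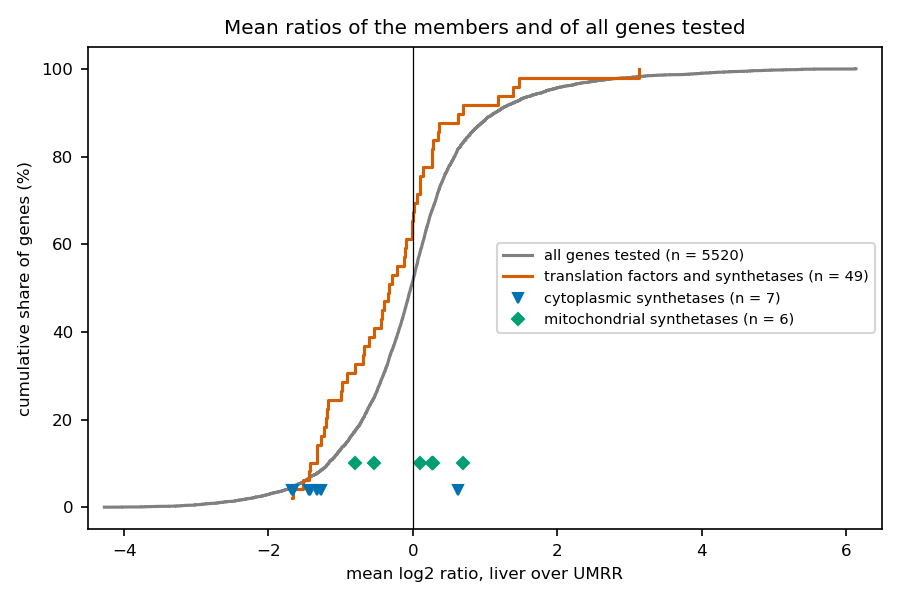
Cumulative share of genes, in percent, against the mean log2 ratio of liver over UMRR, for the 49 translation factors and synthetases and for all 5520 genes tested. Triangles and diamonds, whose height carries no value, mark the 7 cytoplasmic and 6 mitochondrial synthetases. The curve of the 49 genes lies to the left of that of all genes over most of its range, and all cytoplasmic synthetases but 1 lie below -1.27.

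Medians by role ran from -1.42 to 0.18, with Pabpc1 alone in its group. Cytoplasmic synthetases stood at -1.42 and elongation factors, with their modifying enzymes, at -0.36. Initiation factors stood at -0.053, with members far out on both sides. The kinases and binding proteins that restrain initiation had a median of -0.12, and mitochondrial synthetases one of 0.18. These medians describe the measured members and were not tested against each other.

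**Figure D2:**
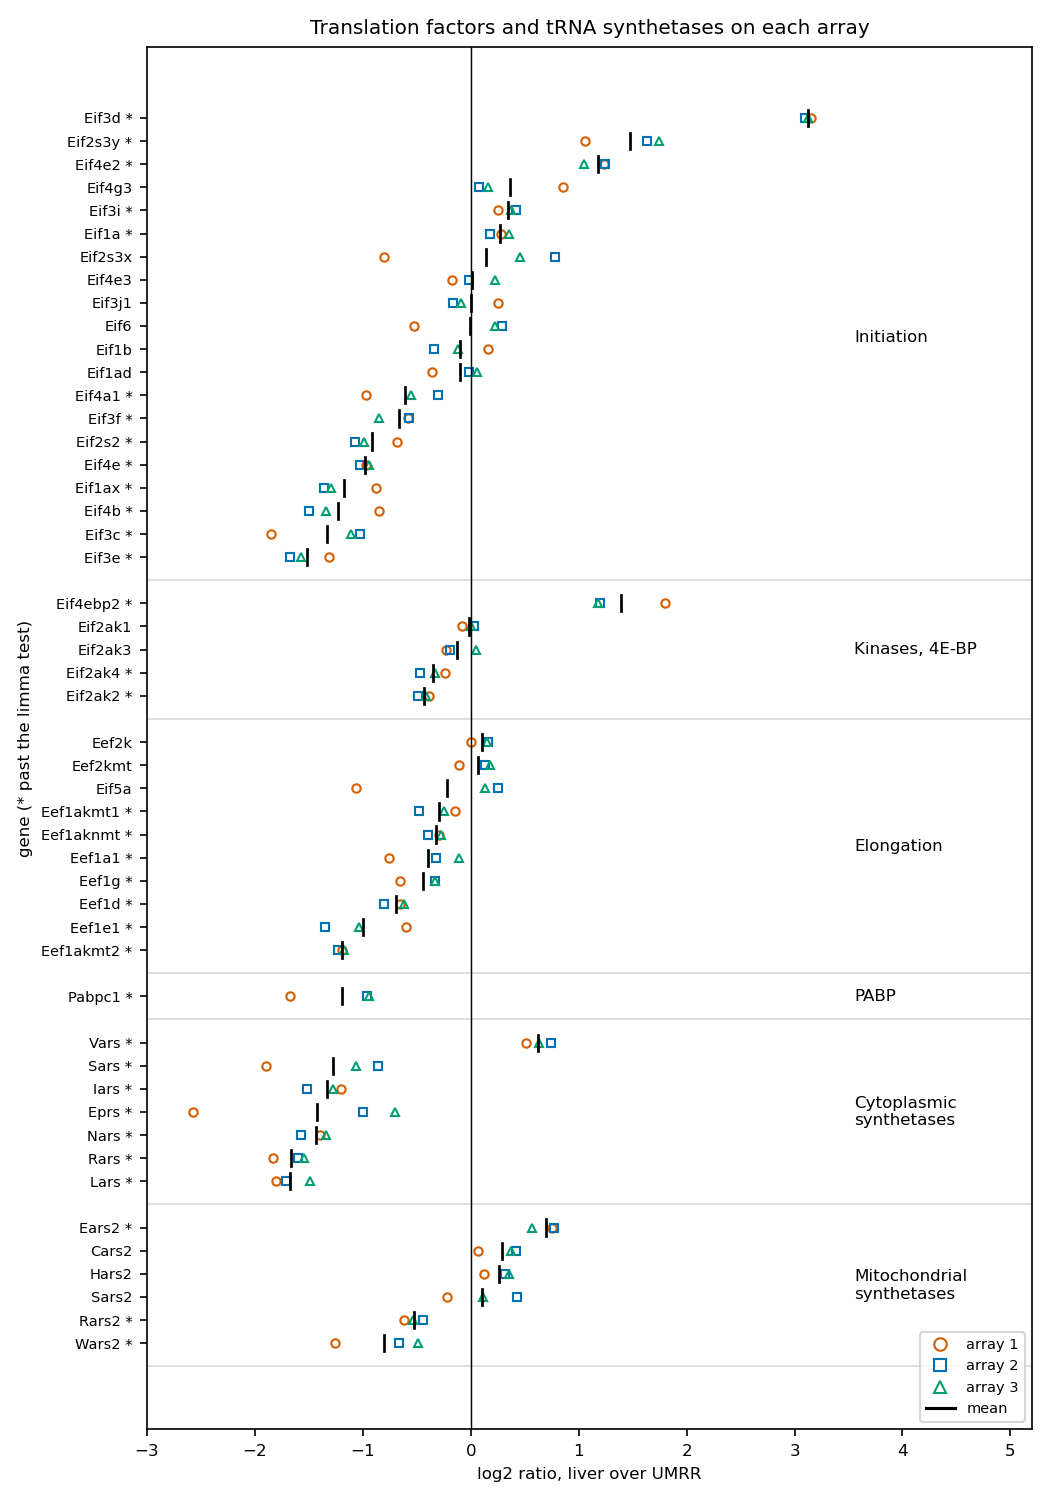
Log2 ratio of liver over UMRR for each of the 49 measured genes on arrays 1, 2 and 3 (open symbols), with the mean as a bar, grouped by role. Asterisks mark genes past the limma test. Eif3d lies alone near 3.13, the cytoplasmic synthetases lie left of 0 except Vars, and array 1 stands apart for Eprs, Eif5a and Eif2s3x.

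Among the initiation factors 20 of 27 genes were measured, and 8 were lower, 5 higher and 7 not past the test. That is 40% lower and 25% higher, near the 33.9% and 30.1% of all genes tested. Of eIF3, the large complex that joins mRNA and the small ribosomal subunit, 6 subunits were measured. Eif3e, a subunit of its core, had log2 ratios of -1.32, -1.67 and -1.58 on arrays 1, 2 and 3. All 3 values were low, and the mean of -1.52 ± 0.18 (SD, n = 3) is a 2.87-fold lower level in liver (adjusted p = 6.05e-05). Eif3c, another core subunit, stood at -1.85, -1.03 and -1.11 as the mean of 3 probes, which lay within 0.15 of each other in their means. Array 1 was the lowest, and the mean was -1.33 ± 0.45 (adjusted p = 0.000809). Eif3f, a subunit with a deubiquitinase-like fold, was lower by less, at -0.58, -0.57 and -0.85 (mean -0.67 ± 0.16, adjusted p = 0.00169).

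The other eIF3 subunits tested, Eif3i and Eif3j1, were not lower, and Eif3d is given below. Eif3i, a WD-repeat subunit, stood at 0.25, 0.42 and 0.37 as the mean of 2 probes and passed as higher (0.35 ± 0.088, adjusted p = 0.0180). It no longer passed without array 2 (adjusted p = 0.126) or array 3 (0.147). Eif3j1, a loosely bound subunit, stood at 0.25, -0.16 and -0.092, on both sides of 0. Eif3a, the scaffold of the complex, was well below 0 on arrays 1 and 2, at -2.09 and -0.94, but had an exact 0 on array 3 and was not tested. Eif3h and Eif3l were listed at exact 0 on every array.

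Eif3d, the subunit that can itself bind the cap of some mRNAs, had the highest ratio of all 49 genes. Its measured probe (14216) gave 3.15, 3.10 and 3.13, which is 8.73-fold higher in liver (3.13 ± 0.026, SD, n = 3; adjusted p = 3.31e-06). The values hardly differed between arrays, and the mean stood at 98.2% in the order of all genes tested from the lowest up. The array carries 4 probes from the same sequence record of Eif3d, and the other 3 were listed at exact 0 on every array. The high value thus rests on 1 of 4 probes. With the zeros kept as ratios of 1, the mean of the 4 was 0.78 (adjusted p = 0.00348). Constant zeros shrink the mean and its spread alike, so this pass says nothing about the other 3 probes.

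The eIF2 complex carries the initiator tRNA. Its beta subunit Eif2s2 was lower in liver at -0.68, -1.08 and -0.99 as the mean of 2 probes (mean -0.91 ± 0.21, adjusted p = 0.000618). Its gamma subunit is made from an X-linked and a Y-linked gene. Eif2s3y, the Y-linked copy, stood at 1.06, 1.63 and 1.74, which is 2.78-fold higher in liver (1.48 ± 0.37, adjusted p = 0.000269). It was at least 2-fold higher on each array, on 1 of its 2 probes, and the other was listed at exact 0 throughout. Eif2s3x, the X-linked copy, stood at -0.81, 0.78 and 0.45. Array 1 lay on the other side of 0 from arrays 2 and 3, and the mean of 0.14 ± 0.84 did not pass (adjusted p = 0.692), while without array 1 it was 0.61 (adjusted p = 0.000781). These values are of 1 probe (17315). The other (3174) had -0.36 and -0.46 on arrays 1 and 2 and an exact 0 on array 3, so the probes were on opposite sides of 0 on array 2, and with both of them the mean was 0.0094. Per array, Eif2s3x by its first probe minus Eif2s3y was -1.86, -0.85 and -1.29. The sex of the liver donors is not in the labels.

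The starts of both genes are shown because both hold a run of C and T on or beside the annotated start. TOP mRNAs, whose translation follows mTORC1 activity, begin with a C inside such a run. The annotated start of Eif2s3x is a C, while in Eif2s3y the run begins only after the first base, so Eif2s3y lacks that feature at this start. Eif3f is shown with them as a lower member with a C at the start, and Wars2, a mitochondrial synthetase, as another. Each line gives 15 bases before the RefSeq start and 15 from it on, 5′ to 3′, with the longest run of C and T near the start in capitals (RefSeq, GRCm38.p6).
Eif2s3x (chrX:94212637-94212666, minus strand): ctgccgagcaTTTTCCTTTTCTCTCCgagc
Eif2s3y (chrY:1010580-1010609, plus strand): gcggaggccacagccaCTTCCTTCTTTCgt
Eif3f (chr7:108934400-108934429, plus strand): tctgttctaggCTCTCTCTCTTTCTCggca
Wars2 (chr3:99141075-99141104, plus strand): gccggcggccccgCCCTTCTCaagatggcg
The capitals span 16, 12, 15 and 8 bases. A C at the start followed by at least 4 C or T was found in 3 of 61 promoters of the members (Eif2s3x, Eif3f and Wars2), or 4.92%, against 2.51% of 32851 promoters in the table. RefSeq promoters were found for 46 of the 64 genes. A match describes the letters only.

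The eIF4F group binds the cap and opens the mRNA. Eif4e, its cap-binding subunit, had the closest values of the lower members in this group, at -0.97, -1.02 and -0.94, or 1.97-fold lower in liver (-0.98 ± 0.042, adjusted p = 0.000179). Eif4b, which stimulates the helicase, stood at -0.85, -1.50 and -1.34 (mean -1.23 ± 0.34, adjusted p = 0.000485). Eif4a1, the helicase itself, stood at -0.97, -0.31 and -0.55 (mean -0.61 ± 0.33, adjusted p = 0.00990). Its other probe (15001) was at exact 0 throughout. Eif4a1 did not pass with the zeros kept as ratios of 1 (mean -0.30, adjusted p = 0.121). Without moderation of the variance, neither Eif4a1 (adjusted p = 0.138) nor Eif4b (0.0582) passed. Eif4e, Eif4b and Eif4a1 were below 0 on every array. Eif4g3, a scaffold paralogue, went the other way without passing, at 0.85, 0.077 and 0.16 (adjusted p = 0.101).

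The relatives of Eif4e did not share its direction. Eif4e3 stood at -0.17, -0.018 and 0.23 and did not pass. Eif4e2, known as 4EHP, a cap-binding protein that represses translation, passed as higher with a gene mean of 1.18 ± 0.11 (SD, n = 3; adjusted p = 0.000106). That mean joins unlike probes: probe 15919 gave 3.17, 3.30 and 3.06, probe 7482 gave 0.48, 0.23 and 0.14, and probe 1651 gave 0.053, 0.21 and -0.043. Only the first passed on its own in the fit of 9910 single probes, where 31.4% were higher. With the median probe per gene the value was 0.28 (adjusted p = 0.0580).

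Small initiation factors completed the group. Eif1ax, the X-linked gene of eIF1A, which helps the ribosome to scan for the start codon, stood at -0.87, -1.36 and -1.29 as the mean of 2 probes (mean -1.18 ± 0.26, adjusted p = 0.000321). Eif1a, its autosomal copy, stood at 0.28, 0.18 and 0.35 and passed as higher (0.27 ± 0.088, adjusted p = 0.0453). Its 3 probes disagreed, with means of 1.69, -0.37 and -0.51, and each passed on its own in its own direction. With the median probe Eif1a turned to -0.37 (adjusted p = 0.0141), and the gene mean no longer passed without array 2 (adjusted p = 0.119) or array 3 (0.319). Both genes code for nearly the same protein. Whether a probe of 1 gene also takes up RNA of the other was not tested.

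The last members of the group showed no call. Eif1b and Eif1ad, both relatives of small factors, had means of -0.099 and -0.10. Eif6, which keeps the large ribosomal subunit apart from the small one, stood at -0.53, 0.29 and 0.22, with array 1 alone below 0. Without array 1 its mean was 0.26 (adjusted p = 0.0226). Of the factors without a ratio on all arrays, Eif2d had 0.51 and 0.45 on arrays 1 and 3, Eif5, which triggers GTP hydrolysis by eIF2, had 0.23 and 0.70 on arrays 1 and 2, and Eif4enif1 had -0.96 on array 3. Eif4a3, a helicase of the exon junction complex, was listed at exact 0 throughout.

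Kinases that phosphorylate eIF2 slow initiation under stress, and eIF4E-binding proteins block eIF4E. Of 6 such genes 5 were measured. Eif2ak2 (PKR), the sensor of double-stranded RNA, stood at -0.38, -0.49 and -0.42, lower in liver (mean -0.43 ± 0.056, adjusted p = 0.00672). Eif2ak4 (GCN2), the sensor of uncharged tRNA, stood at -0.24, -0.47 and -0.34 (mean -0.35 ± 0.12, adjusted p = 0.0199), and its 2 probes differed, with means of -0.70 and -0.0029. Neither passed when array 2 (adjusted p = 0.0575 and 0.150) or array 3 (0.0661 and 0.129) was left out. Eif2ak3 (PERK), the kinase of endoplasmic reticulum stress, stood at -0.23, -0.19 and 0.044, and Eif2ak1 (HRI), the heme-regulated kinase, at -0.078, 0.033 and 0.00032. Neither passed.

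Eif4ebp2 was the exception in this group. It stood at 1.80, 1.20 and 1.18, which is 2.63-fold higher in liver (1.39 ± 0.35, SD, n = 3; adjusted p = 0.000310), and was above 1 on every array. Its binding partner Eif4e was lower, as given above. Eif4ebp1 was listed at exact 0 on each array.

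Of 11 elongation genes 10 were measured, and 7 were lower, 0 higher and 3 not past the limma test (Eef2k, Eef2kmt and Eif5a). That is 70% lower and 0% higher, against 33.9% and 30.1% of all genes tested. At an unadjusted p under 0.05 or without moderation of the variance, 0 were higher too. Single probes of Eef1g were higher, as given below, and Eef2k was higher at 0.28 when the median of each block of consecutive probe numbers was subtracted (adjusted p = 0.0323). Probes named for both Strap and Eef2, which are outside the 64 genes, were above 0 on every array, from 1.49 to 2.18. They cannot be given to either gene alone. The eEF1 complex loads aminoacyl-tRNA onto the ribosome. Eef1a1, the GTPase that carries the tRNA, stood at -0.76, -0.33 and -0.11 on 1 probe (mean -0.40 ± 0.33, adjusted p = 0.0475). It no longer passed without array 1 (mean -0.22, adjusted p = 0.0610) or array 2 (-0.43, adjusted p = 0.0909). Its other probe had an exact 0 on array 1 and -0.18 and -0.27 on arrays 2 and 3. Such abundant genes have many processed pseudogenes. Whether these added to the values was not tested, and the values are uncertain.

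Eef1d, a subunit of the exchange factor that recharges Eef1a1 with GTP, stood at -0.66, -0.80 and -0.62 as the mean of 4 probes (mean -0.69 ± 0.097, adjusted p = 0.00100). Of these, 3 had means between -1.10 and -0.76 and passed, and the fourth, at -0.091, did not. Eef1b2, another subunit of the exchange factor, had -0.42 and -1.01 on arrays 1 and 3 and no ratio on array 2. Eef1e1, also a scaffold protein of the multi-synthetase complex, stood at -0.60, -1.35 and -1.03 (mean -0.996 ± 0.38, adjusted p = 0.00164).

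Eef1g, the structural subunit of the exchange factor, was the gene with the most measured probes, 6 of 7. Its gene mean was -0.44 ± 0.18 (SD, n = 3; adjusted p = 0.0124), but the probes ran from -1.44 to 1.35. Probe 5493 gave 1.29, 1.41 and 1.36, and probe 10762 gave 0.47, 0.35 and 0.36. The other 4 measured probes were below 0 on each array, with means of -1.44, -1.41, -0.95 and -0.58. All 6 passed in the fit of single probes, 4 as lower and 2 as higher (33.5% and 31.4% of all single probes), each of them from a sequence record of its own. The gene mean of Eef1g thus describes no single probe.

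**Figure D3:**
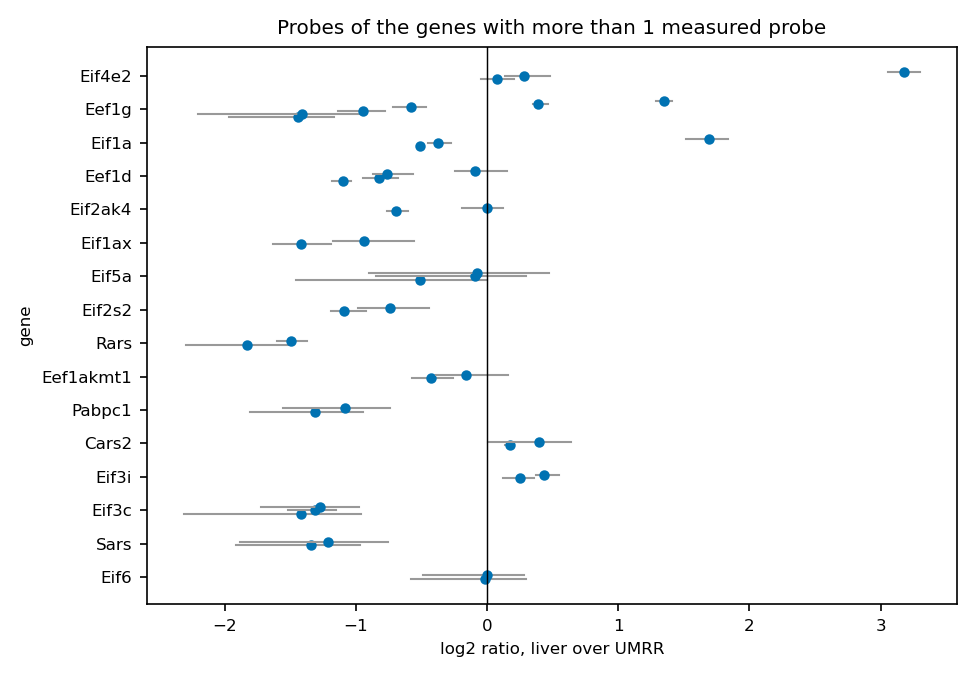
Mean log2 ratio of liver over UMRR of each measured probe (points), with the range over the 3 arrays as a line, for the 16 genes with more than 1 measured probe. Probes of Eif4e2, Eef1g, Eif1a and Eef1d lie at least 1 log2 unit apart, while those of Eif3c, Sars and Eif6 lie together.

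Probes of 1 gene disagreed by at least 1 log2 unit in 4 of 16 members with more than 1 measured probe (25%), namely Eif4e2, Eef1g, Eif1a and Eef1d, and in 15.9% of all 1328 such genes. In all 4 the probes came from different sequence records, as they did in 13 of the 16 members. Over all genes, probes lay that far apart in 10 of 103 genes with probes of 1 record. The same held for 176 of 1161 genes with a record for each probe. A part of the records in the disagreement was not tested. In Rars, Sars and Pabpc1, whose measured probes share 1 record, the means differed by 0.34, 0.13 and 0.23. Another probe of the Sars record (3227) did not share this closeness: it had 0.0088 on array 2, where the others had -0.97 and -0.75, and an exact 0 on arrays 1 and 3. The third probe of Rars had an exact 0 on array 1 and -1.54 and -1.55 on arrays 2 and 3. Leaving out the 4 genes left 24 lower and 6 higher of 45, with the median at -0.32.

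Enzymes that modify elongation factors were measured too. Eef1akmt2, a lysine methyltransferase of eEF1A, stood at -1.19, -1.23 and -1.17, or 2.29-fold lower in liver (-1.20 ± 0.029, adjusted p = 7.52e-05), with less spread than any other lower elongation gene. Eef1aknmt and Eef1akmt1, further methyltransferases of eEF1A, had means of -0.32 ± 0.066 (adjusted p = 0.0213) and -0.29 ± 0.17 (0.0495). Neither passed when array 2 (adjusted p = 0.149 and 0.307) or array 3 (0.133 and 0.184) was left out. Eef2k, the kinase that inhibits eEF2, and Eef2kmt, a methyltransferase of eEF2, had means of 0.10 and 0.065 and did not pass. Eif5a, which carries the modified lysine hypusine and helps ribosomes through difficult peptide bonds, stood at -1.07 on array 1 and at 0.26 and 0.13 on arrays 2 and 3. All 3 of its probes were lowest on array 1, and the mean of -0.23 ± 0.73 did not pass (adjusted p = 0.473).

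Poly(A)-binding protein Pabpc1, which links the tail of an mRNA to the initiation complex, stood at -1.68, -0.96 and -0.95 as the mean of 2 probes of 1 record. All 3 values were low, array 1 the lowest, and the mean was 2.29-fold lower in liver (-1.19 ± 0.42, adjusted p = 0.00103). Gspt1, the release factor eRF3, had an exact 0 on array 1 and -0.57 and -0.84 on arrays 2 and 3, so it was not tested.

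Cytoplasmic synthetases had the lowest median of the groups: of 7 measured genes 6 were lower and 1 was higher. That is 85.7% lower and 14.3% higher, against 33.9% and 30.1% of all genes tested. The lower genes lay between 4.55% and 8.42% in the order of all genes from the lowest up. Lars, the leucine enzyme, stood at -1.81, -1.71 and -1.49, or 3.19-fold lower in liver (-1.67 ± 0.16, SD, n = 3; adjusted p = 3.50e-05). Rars, the arginine enzyme, stood at -1.83, -1.60 and -1.55 as the mean of 2 probes (mean -1.66 ± 0.15, adjusted p = 3.34e-05). Nars, the asparagine enzyme, stood at -1.39, -1.57 and -1.34 (mean -1.43 ± 0.12, adjusted p = 5.00e-05). Iars, the isoleucine enzyme, stood at -1.20, -1.51 and -1.28 (mean -1.33 ± 0.16, adjusted p = 8.78e-05). These 4 were at least 2-fold lower on every array, and their ranges over the arrays overlapped, except those of Rars and Iars.

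The other lower enzymes were lowest on array 1. Eprs, which joins the glutamate and proline enzymes in 1 chain, stood at -2.57, -1.0 and -0.70 (mean -1.42 ± 1.01, adjusted p = 0.0115), with a gap of -1.72 between array 1 and the mean of the others. Its other probe (12255) was at exact 0 throughout. Eprs did not pass with the zeros kept (mean -0.71, adjusted p = 0.182) or without moderation of the variance (adjusted p = 0.192). Sars, the serine enzyme, stood at -1.90, -0.86 and -1.06 as the mean of 2 probes (mean -1.27 ± 0.55, adjusted p = 0.00193). Sars did not pass with the zeros kept (mean -0.85, adjusted p = 0.0811) or without moderation of the variance (adjusted p = 0.101). Vars, the valine enzyme, went against the group at 0.51, 0.74 and 0.63, or 1.54-fold higher in liver (0.63 ± 0.12, adjusted p = 0.00172), with all 3 values above 0. Its other probe (2784) was at exact 0 throughout, and with the zeros kept the mean of Vars was 0.31 (adjusted p = 0.0222). Here too the zeros shrink mean and spread alike, so this pass says nothing about the other probe.

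Eprs, Iars, Lars, Rars and the scaffold Eef1e1 belong to the multi-synthetase complex of the cytoplasm. All 5 were lower, with a median of -1.42, where 33.9% of all genes tested were lower. This set was written after the values were seen, and its enzymes are among the lower ones described above. Of the 3 measured enzymes outside the complex, Nars and Sars were lower and Vars was higher. With so few genes no difference between the enzymes in and out of the complex was tested. Without a ratio on all arrays, Farsa, the alpha chain of the phenylalanine enzyme, had -0.54 and -0.33 on arrays 1 and 2, and Farsb, its beta chain, had -0.48 on array 2. Hars, the histidine enzyme, had -0.95 on array 3, and Gars, the glycine enzyme of both compartments, had 0.10 on array 1. Wars was listed at exact 0 on both probes. With zeros kept as ratios of 1, the median of all 12 cytoplasmic genes was -0.51.

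Among the 6 mitochondrial synthetases, 1 was higher, 2 were lower and 3 did not pass. That is 33.3% lower and 16.7% higher, against 33.9% and 30.1% of all genes tested. Ears2, the glutamate enzyme, stood at 0.75, 0.77 and 0.57, or 1.62-fold higher in liver (0.70 ± 0.11, adjusted p = 0.00107), on 1 of 2 probes of its record, the other being at exact 0. Rars2, the arginine enzyme, stood at -0.61, -0.44 and -0.53 (mean -0.53 ± 0.086, adjusted p = 0.00308). Wars2, the tryptophan enzyme, stood at -1.26, -0.66 and -0.49 (mean -0.80 ± 0.41, adjusted p = 0.00534). Hars2 and Cars2, for histidine and cysteine, were above 0 on all arrays, with means of 0.26 and 0.29, and missed the threshold (adjusted p = 0.0552 and 0.0590). Sars2 had a mean of 0.10, with array 1 below 0. Without array 1, Hars2 (0.33, adjusted p = 0.00654), Cars2 (0.39, 0.00283) and Sars2 (0.27, 0.0399) all passed as higher. None of them passed without array 2 (adjusted p = 0.240, 0.284 and 0.797) or array 3 (0.338, 0.303 and 0.713). Without array 2 the mean of Sars2 was -0.056.

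The median of the mitochondrial enzymes was above that of the cytoplasmic enzymes by 1.73, 1.88 and 1.51 log2 units on arrays 1, 2 and 3, a gap of 1.71 ± 0.19 (SD, n = 3) over 6 mitochondrial and 7 of 12 cytoplasmic enzymes. With zeros kept as ratios of 1 the medians were nearer each other, at 0.18 and -0.51. For serine, arginine and glutamate both enzymes were measured. Sars minus Sars2 was -1.68, -1.29 and -1.17, and Rars minus Rars2 was -1.22, -1.16 and -1.02. For glutamate, Eprs, which also serves proline, stood at -2.57, -1.0 and -0.70, and Ears2 at 0.75, 0.77 and 0.57. The cytoplasmic enzyme had the lower ratio on each array in all of these pairs. An exact two-sided permutation of signs over 3 arrays cannot go below p = 0.25, so these gaps are given as values.

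**Figure D4:**
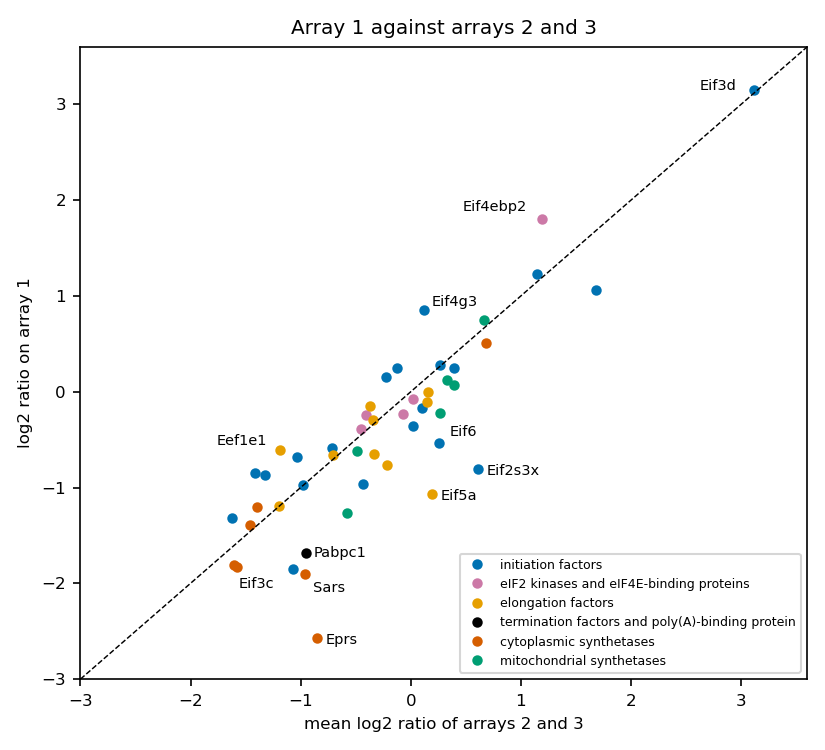
Log2 ratio on array 1 against the mean of arrays 2 and 3 for the 49 measured genes, coloured by role, with the line of equality dashed. Eprs, Eif2s3x and Eif5a lie more than 1 log2 unit below the line, and Eif4g3, Eif4ebp2 and Eef1e1 lie above it.

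The arrays were not equally close for these genes. Array 1 differed from the mean of arrays 2 and 3 by at least 1 log2 unit for 3 of the 49 genes (6.12%), against 1.92% of all genes tested. The 3 were Eprs, Eif2s3x and Eif5a. Array 1 gave the lowest of the 3 values for 26 genes (53.1%), against 40.6% of all genes. These shares were not tested. Between arrays 2 and 3 the median absolute difference was 0.11 for the members and 0.12 for all genes. Of the 34 called members, 27 kept their call when any 1 array was left out.

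The promoters of the synthetases were searched for TGATGNAA on both strands, the core of an element bound by ATF4 with C/EBP proteins, through which amino acid shortage is known to raise some synthetase genes. It was found in 2 of 6 promoters of cytoplasmic synthetases, in 4 of all 61 promoters of the members (6.56%) and in 3.97% of the 32851 promoters in the table. The letters around it are shown for Iars, a lower member, and for Gars, in capitals and as read on the strand of the gene (RefSeq, GRCm38.p6).
Iars (chr13:49682126-49682155, plus strand): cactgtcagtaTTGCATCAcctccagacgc
Gars (chr6:55037960-55037989, plus strand): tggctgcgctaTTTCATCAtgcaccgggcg
Both matches are on the strand opposite to the gene. The match begins 8 bases into the transcript in Iars and 30 bases before the start in Gars. The other matches were in promoters of Eef2k and Eif2s3x. No promoter was found for Lars, Rars or Nars, and Gars had a ratio on array 1 only.

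Other genes of the amino acid response were mostly lower in liver. Of 9 measured genes from a list of 28, 8 were lower and 1 was higher, where 33.9% of all genes tested were lower and 30.1% higher. The median was -0.79, with array medians of -1.17, -0.81 and -0.79. Aldh18a1, which starts the synthesis of proline, stood at -2.64, -3.13 and -2.99, or 7.56-fold lower (-2.92 ± 0.25, SD, n = 3; adjusted p = 8.07e-06). Slc3a2, the shared chain of several amino acid carriers, stood at -1.34, -1.36 and -1.33 (adjusted p = 4.61e-05). Shmt2, the mitochondrial serine enzyme, was the higher member at 0.78 ± 0.21. Atf4 itself was not among the measured genes.

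**Figure D5:**
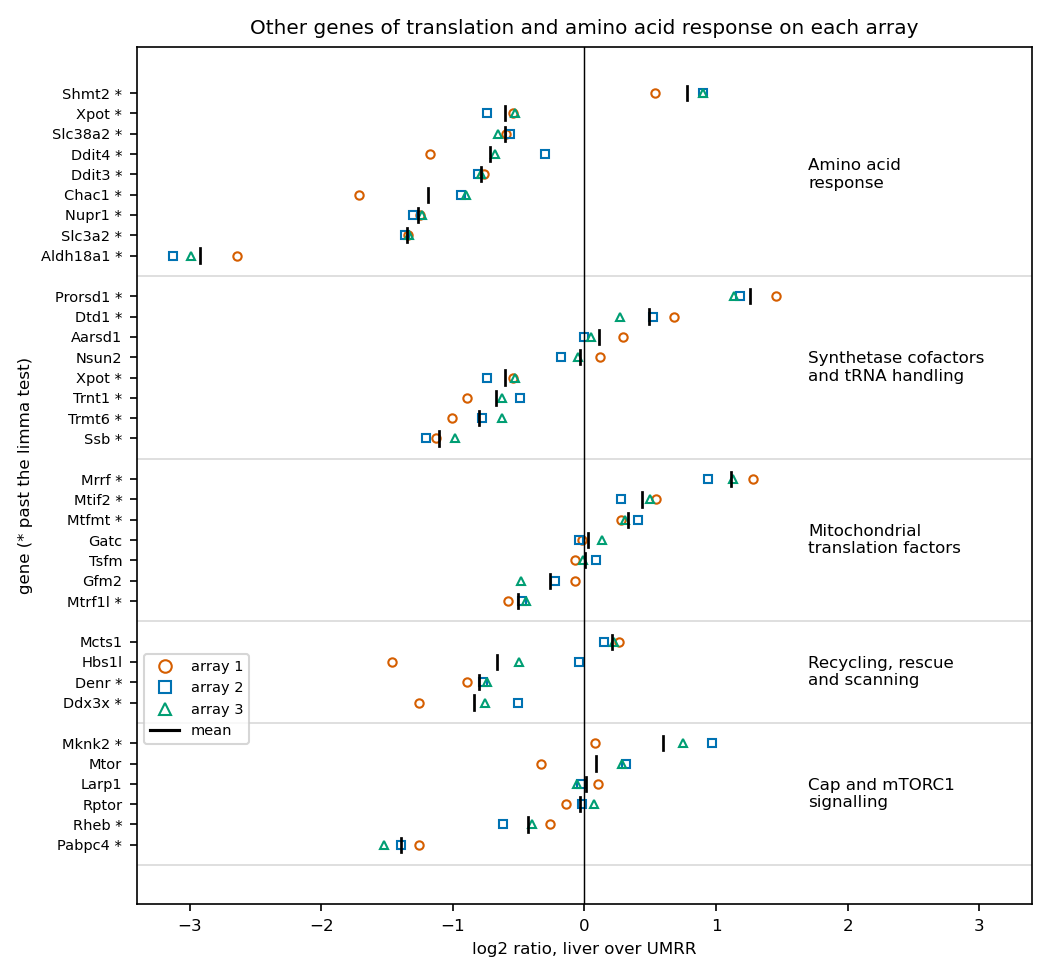
Log2 ratio of liver over UMRR on arrays 1, 2 and 3 (open symbols) with the mean as a bar, for measured genes of 5 lists of related function. Asterisks mark genes past the limma test. Genes of the amino acid response lie left of 0 except Shmt2, and the other lists lie on both sides.

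Further lists went both ways. Their counts stand beside 33.9% lower and 30.1% higher among all genes tested. Of 8 measured genes that serve synthetases or tRNAs, 4 were lower and 2 higher, and the median was -0.32. Ssb, the La protein that binds new tRNA transcripts, stood at -1.10 ± 0.11 (adjusted p = 0.000144) and Prorsd1, a relative of a domain that edits mischarged tRNA, at 1.26 ± 0.17 (0.000121). Xpot, the nuclear exporter of tRNA, belongs to this list and to the amino acid response, at -0.61 ± 0.12. Of 7 mitochondrial translation factors 3 were higher and 1 lower, and the median was 0.025. They included Mrrf, the ribosome recycling factor (1.12 ± 0.17, adjusted p = 0.000197), and Mtrf1l, a release factor (-0.50 ± 0.071, adjusted p = 0.00370).

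For recycling, rescue and scanning, 2 of 4 measured genes were lower and 0 higher in the limma fit, and 0 were higher at an unadjusted p under 0.05 or without moderation of the variance. In the limma fit of all genes tested 33.9% were lower and 30.1% higher. Mcts1 (0.21, adjusted p = 0.0853) and Hbs1l (-0.67, adjusted p = 0.0604) did not pass. Denr, which helps to free the small subunit, stood at -0.80 ± 0.083 and Ddx3x, a helicase of scanning, at -0.84 ± 0.39. Of 6 measured genes that signal to the cap, 2 were lower and 1 higher, against 33.9% and 30.1% of all genes. Their median was -0.011. Pabpc4, a relative of Pabpc1, stood at -1.26, -1.39 and -1.52 (mean -1.39 ± 0.13, adjusted p = 6.14e-05). Mknk2, a kinase of eIF4E, stood at 0.080, 0.97 and 0.75 (mean 0.60 ± 0.46, adjusted p = 0.0248). Mtor itself stood at -0.33, 0.31 and 0.29, with array 1 alone below 0, and did not pass.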

How the data were processed

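The authors deposited 1 log2 ratio (base assumed) per probe and array for 3 arrays of 2 colours. The labels name no scanner, background correction, dye normalization or filter, and the authors' procedure behind the exact zeros is unknown. The signal behind a ratio was not used here, and the number of arrays limits the precision. Probes were named from the platform annotation, and probes with 1 symbol and a ratio on all arrays were averaged per gene (5520 genes). The mean of each gene was tested against 0, two-sided, with limma 3.58.1 (lmFit, eBayes; R 4.3.3), with Benjamini-Hochberg adjustment over all genes. Single probes (9910) were fitted likewise. A member was called at an adjusted p under 0.05.

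The members, roles and lists were chosen with earlier results of these data known. The set of multi-synthetase complex genes was written after the values were seen. Values on each array are given, in each role group, for the 4 largest absolute means past the test, members against the group median, regulators, paralogue pairs and genes with discordant probes, and for other measured members, which were added after their values were seen. On simulated data with few of 5520 genes changed, the fit recovered 73.3% of changes of 1 log2 unit and 28.7% of changes of 0.5. Only genes with the right sign of the mean were counted. In the deposited data 64% of genes were called, so these shares may not hold for them. Settings tried are in the closing section.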

Additional observations from a re-analysis of the deposited data

How the results depend on the processing

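No paired analysis was possible because there is 1 group of arrays. Of the 34 called members, Eif3d, Eif3e, Lars, Nars and Rars kept call and direction under every setting run. For Eif3d, the setting with exact zeros kept is no check of its probes at exact 0. The settings include a test against a 2-fold difference, which only these 5 genes passed (1 higher, 4 lower). Some of the other called members, such as Eif4e and Iars, lost their call in that test only. Others lost it in more settings: counted with that test, Eef1akmt1 in 10, Eef1a1 in 9 and Eif1a in 7. The count of higher members was 8 and ran from 6 to 13 when arrays were left out; the count of lower members was 26 and ran from 21 to 25. Without moderation of the variance 4 were higher and 14 lower. With exact zeros kept 16 were lower, and the median of the cytoplasmic synthetases was -0.51. Among the members that lost their call both there and without moderation were Eif3c, Eif4a1, Eef1e1, Pabpc1, Eprs, Sars and Wars2. On single probes 40 of 75 were lower and 10 higher. Read as natural logs, the medians were -2.05 for cytoplasmic synthetases and -1.72 for Pabpc1. The median of the members was between -0.47 (natural logs) and -0.29 in settings that kept the 49 genes, and -0.21 over all 64 with exact zeros kept. Eif1a turned to -0.37 with the median probe, and Eif6, not past the test with all arrays, ran from -0.15 to 0.26 when arrays were left out, passing as higher without array 1. Centring and scaling of the arrays cost the calls of Eef1a1 (centring) and Eef1akmt1 (both). The cause of these changes was not tested.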
